A study of Mus musculus with 18 samples.

Results

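The genes described here are 38 signalling genes of the Toll-like receptor (TLR) pathway, from the LPS co-receptors through the adaptors and kinases to NF-kB and its inhibitors. They were chosen by gene symbol, and all 38 were found among the 24059 symbols of the deposited count tables. RNA-seq was done on macrophages that C57BL/6J bone marrow cells had given rise to, grown for 7 days in medium with 20% of L929-conditioned medium and then kept in 4%. One set of 6 libraries holds untreated cells and cells given lipopolysaccharide (LPS), the bacterial cell wall component that TLR4 recognises. A second set of 12 libraries holds 4 groups that all received LPS. The first of these 4 groups had LPS alone. Another had LPS after 20 h with reconstituted high-density lipoprotein (rHDL) CSL111, particles of APOA1 and soybean phosphatidylcholine at 1 to 150, given from day 8. In the other two groups the macrophages were first loaded with cholesterol from POPC/cholesterol liposomes, and then received LPS either without rHDL or after it. Each group has 3 libraries. Cells given rHDL or loading without LPS were not analysed here. How much LPS was given, for how long, and the age of the mice are not stated in the sources used here. It is not stated whether the replicates were separate cultures or animals, so p-values measure the spread between these libraries, which may be technical.

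The pathway works as a relay. CD14 and MD-2 (Ly96) present LPS to TLR4, whose cytoplasmic domain recruits the adaptor pairs TIRAP with MyD88 and TRAM (Ticam2) with TRIF (Ticam1). MyD88 assembles the IRAK kinases, which act on the ubiquitin ligase TRAF6, and the resulting ubiquitin chains bring together the TAK1 complex and the IKK complex. IKK marks the IkB proteins for destruction and so frees NF-kB dimers, while the TRIF branch uses TRAF3 and the kinases TBK1 and IKKε to switch on interferon genes. Many members are also transcribed by NF-kB, among them the inhibitors IkBα (Nfkbia) and A20 (Tnfaip3), which turn the relay off.

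Library totals ran from 11450243 to 16835472 counts in the first set and from 9464916 to 15607889 in the second. Within a group, log2 levels of all genes correlated between replicates at r of 0.9882 to 0.9958. Levels below are in CPM, counts scaled to the TMM-adjusted library size, and are given as mean ± SD over n = 3 libraries. Values after a log2 fold change are standard errors, and a gene is called at an adjusted p under 0.05. In the deposited tables, 6697 of 6698 transcript rows whose exon bases are all shared hold 0 counts, so reads over several rows were left out. A member with several overlapping isoforms is therefore measured on the exon bases that no other row covers, called its own bases here. Of the 38 members, 27 had enough counts to be tested in the first set and 26 of these in the second, where Traf3 was left out. The remaining 11 were tested in neither set. They are the co-receptor Ly96, the adaptor Tirap, the kinases Irak1, Map3k7 (TAK1) and Chuk (IKKα), and Traf2. The regulatory subunit Ikbkg (NEMO), the subunit Relb, the nuclear inhibitor Nfkbiz, the A20 partner Tnip1 and the deubiquitinase Cyld complete the list. These 11 had between 0.1 and 9.0% of their exon bases to themselves, and the highest count of any of them in a library was 9. Their low counts therefore say nothing about their expression. Among the tested members 22 had 84.1% or more of their exon bases to themselves. The other 5 were measured on a small part of the gene: Irak2 on 4.5%, Traf3 on 2.6%, Ikbkb on 20.8%, Nfkb2 on 9.8% and Tnfaip3 on 9.4%. No other row covers such bases, so for these genes a shift between isoforms and a change of the whole gene cannot be told apart.

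**Figure D1:**
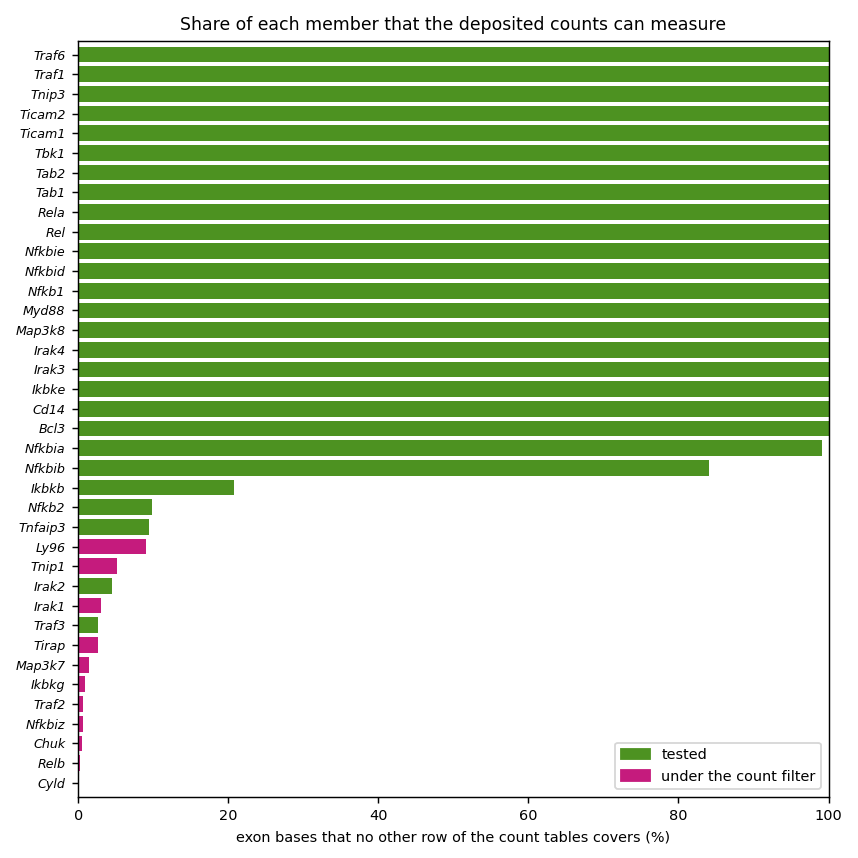
Percentage of each member's exon bases that no other row of the count tables covers (x axis), 1 bar per member, green where the member was tested and pink where it fell under the count filter. The 11 untested members all lie at 9.0% or less, and 22 of the tested members lie at 84.1% or more.

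Because several members are textbook NF-kB target genes, the 250 bases before their start sites were searched for the decameric NF-kB consensus on both strands. RefSeq windows (GRCm38.p6) were found for 29 of the 38 members. The motif was in at least one window of 11 of these 29 (37.93%), against 1204 of 27025 genes (4.46%). By window, 13 of 41 member windows held it (31.71%), against 1281 of 32851 (3.9%). Of the 11 members, 7 were called higher with LPS, Traf3 was tested and not called, and Map3k7, Tnip1 and Cyld were not tested. Of all 27 members tested, with or without the motif, 24 were called higher (88.9%), and of all genes 35.3%. A match describes letters and is not a binding site measured here. The windows of 6 members that were called higher with LPS follow, 5′ to 3′ on the gene's strand, with the motif in capitals. They show how differently the motif is placed, from the last bases before the start in Tnfaip3 to the far end of the window in Nfkbid.
Nfkbia, chr12:55492648-55492897, minus strand: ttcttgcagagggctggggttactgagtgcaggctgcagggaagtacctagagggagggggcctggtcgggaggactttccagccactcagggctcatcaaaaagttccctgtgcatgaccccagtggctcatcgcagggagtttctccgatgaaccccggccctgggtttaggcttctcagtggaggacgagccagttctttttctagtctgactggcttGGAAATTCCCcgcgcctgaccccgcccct
Nfkbie, chr17:45555450-45555699, plus strand: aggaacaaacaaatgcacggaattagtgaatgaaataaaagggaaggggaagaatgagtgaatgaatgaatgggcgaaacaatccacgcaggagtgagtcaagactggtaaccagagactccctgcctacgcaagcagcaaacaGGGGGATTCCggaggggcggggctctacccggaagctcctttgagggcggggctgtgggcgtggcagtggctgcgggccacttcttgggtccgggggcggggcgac
Tnfaip3, chr10:19015411-19015660, minus strand: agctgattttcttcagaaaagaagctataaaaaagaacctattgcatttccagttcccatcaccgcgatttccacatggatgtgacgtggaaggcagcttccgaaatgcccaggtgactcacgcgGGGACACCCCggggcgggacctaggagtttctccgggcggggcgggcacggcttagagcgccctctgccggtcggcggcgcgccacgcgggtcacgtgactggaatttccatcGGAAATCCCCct
Rel, chr11:23770970-23771219, minus strand: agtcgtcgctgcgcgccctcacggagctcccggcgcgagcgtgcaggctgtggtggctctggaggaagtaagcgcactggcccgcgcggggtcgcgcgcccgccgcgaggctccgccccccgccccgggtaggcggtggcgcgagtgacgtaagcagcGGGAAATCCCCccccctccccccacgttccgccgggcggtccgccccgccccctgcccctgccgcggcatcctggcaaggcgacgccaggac
Tnip3, chr6:65590148-65590397, plus strand: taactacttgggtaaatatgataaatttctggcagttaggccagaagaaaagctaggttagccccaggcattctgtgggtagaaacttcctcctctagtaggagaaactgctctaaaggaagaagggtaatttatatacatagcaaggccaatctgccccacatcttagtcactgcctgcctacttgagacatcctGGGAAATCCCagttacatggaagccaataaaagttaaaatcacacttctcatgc
Nfkbid, chr7:30422156-30422405, plus strand: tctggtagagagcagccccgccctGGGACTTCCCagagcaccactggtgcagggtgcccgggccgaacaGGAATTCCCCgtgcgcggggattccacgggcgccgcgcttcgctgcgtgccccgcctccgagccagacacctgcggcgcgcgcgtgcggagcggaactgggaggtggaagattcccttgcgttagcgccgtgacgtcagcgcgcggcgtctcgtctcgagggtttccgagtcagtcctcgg

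The first base of the motif lies at -29 in Nfkbia and at -106 in Nfkbie, counted from the start site. Tnfaip3 holds matches at -125 and -12. Rel has a pair of overlapping matches at -92 and -91, and Tnip3 has one at -54 that reads on both strands. The Nfkbid window, with matches at -226 and -181, belongs to a RefSeq start 898 bases from the start of the row counted in the deposited tables.

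LPS raised most of the relay. Of the 27 members tested, 24 rose, 2 fell and 1 was not called in LPS against untreated cells. Over all 9576 genes tested, 35.3% were called higher and 37.6% lower. The median log2 fold change was 1.77 over the members tested and -0.05 over all genes. The 4 largest rises were in the inhibitors Tnfaip3 and Nfkbia, in Traf1 and in the subunit Rel, and the falls were in Tab1 and Irak4. In bulk RNA, a changed share of cells that express a gene and a changed amount of RNA per cell cannot be told apart. With library totals in place of TMM scaling the median of all genes moved to -0.77 and the higher share of all calls moved from 48.4 to 18.7%, while 21 members were then called higher and 3 lower. The macrophage markers summed to 25001 to 30169 CPM in untreated cells and 27098 to 32855 CPM with LPS, ranges that overlap. That list includes Cd14. Of 8 tested, 3 were called higher and 1 lower, against 35.3% higher and 37.6% lower of all genes. The neutrophil markers summed to 85.9 to 104.6 CPM without LPS and 83.8 to 91.3 CPM with it. Of 3 neutrophil markers tested, 2 were called higher and 0 lower. The dendritic markers summed to 356 to 506 CPM without LPS and 575 to 739 CPM with it, with Clec9a and Siglech at 0. The mast cell, erythroid and megakaryocyte markers summed to 14.3 to 30.4 CPM without and 62.0 to 98.8 CPM with LPS, with Mcpt4, Hba-a1 and Hbb-bs at 0. Clec9a, Hba-a1 and Hbb-bs had 0.0, 0.5 and 1.4% of their exon bases to themselves, so their 0 says nothing about expression. The stromal markers summed to 118 to 144 CPM and 86.4 to 117 CPM. Their part in the LPS results was not tested.

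Among the receptors' partners and adaptors, Myd88 (mm10 chr9:119335988-119340040), the adaptor of every TLR but TLR3, had 111, 103 and 112 CPM in untreated cells and 439.5, 493 and 522 CPM with LPS. The lowest LPS library lay far above the highest untreated one, and the log2 fold change was 2.16 ± 0.086 (adjusted p = 2.32e-09). Cd14, the co-receptor that hands LPS to MD-2, rose from 1162 ± 177 CPM to 3816 ± 239 CPM (log2 fold change 1.71 ± 0.11, adjusted p = 1.55e-07). The adaptors of the TRIF branch moved less. Ticam2 (TRAM) rose by 0.83 ± 0.081 and Ticam1 (TRIF) by 0.29 ± 0.083 on the log2 scale. Both depend on the scaling: with library totals Ticam1 was lower instead, at -0.42 (adjusted p = 0.000767), and Ticam2 was not called, at 0.11 (adjusted p = 0.236).

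The 3 IRAK kinases tested did not share a direction. Irak3 (IRAK-M), the inhibitory member of the family, rose from 62.4 ± 4.35 CPM to 212 ± 20.3 CPM, a log2 fold change of 1.77 ± 0.092. Irak2, which sustains signalling after the first activation, rose by 2.33 ± 0.14 on the 4.5% of its exon bases that were measured. Irak4, the kinase at the head of the cascade, had 55.7, 53.5 and 55.8 CPM in untreated cells and 42.5, 42.3 and 42.2 CPM with LPS. All 3 LPS libraries lay below the untreated ones, and Irak4 fell by 0.38 ± 0.07 on the log2 scale (adjusted p = 0.000802).

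Traf1 (mm10 chr2:34943258-34961772), a TRAF protein without a ligase domain, had 38.8, 34.0 and 33.5 CPM in untreated cells and 727, 794 and 849 CPM with LPS. This 22.3-fold rise, a log2 fold change of 4.48 ± 0.10, had the smallest p of all members (adjusted p = 4.33e-11). Traf6, the ubiquitin ligase of the MyD88 branch, rose by 0.92 ± 0.089 on the log2 scale. With library totals that value was 0.21 and not called (adjusted p = 0.0581). Traf3 had a value of 0.62 ± 0.26 (adjusted p = 0.0523) on few bases and was not called. It was called higher with DESeq2 size factors (adjusted p = 0.0402) and with a filter of 1 CPM in 3 libraries (adjusted p = 0.0494).

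The partners of TAK1 moved in opposite directions. Tab2 (mm10 chr10:7905648-7956123), which binds the ubiquitin chains that TRAF6 builds, had 194, 191 and 186 CPM in untreated cells and 859, 755 and 880.1 CPM with LPS. Its log2 fold change was 2.13 ± 0.082 (adjusted p = 1.85e-09). Tab1 (mm10 chr15:80133154-80161702), which binds and activates TAK1, had 24.4, 23.4 and 24.9 CPM in untreated cells and 6.23, 5.24 and 6.41 CPM with LPS. The groups lay far apart, and the level was 4.07-fold lower with LPS (log2 fold change -2.02 ± 0.11, adjusted p = 3.30e-08). Tab1 was measured on all of its exon bases. Map3k8 (TPL2), the kinase that p105 holds inactive and that drives the ERK arm, went from 29.4, 28.2 and 25.8 CPM to 189, 201 and 207 CPM. The LPS libraries were all several times higher, with a log2 fold change of 2.83 ± 0.082 (adjusted p = 2.17e-10).

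All 3 IKK and IKK-related kinases tested rose. Tbk1 rose from 139 ± 1.48 CPM to 364 ± 17.2 CPM and Ikbke from 211 ± 4.21 CPM to 465 ± 9.78 CPM, log2 fold changes of 1.39 ± 0.071 and 1.14 ± 0.068. Ikbkb (IKKβ), the kinase of the canonical branch, was measured on 20.8% of its bases and at low counts, and rose by 1.55 ± 0.21.

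Among the NF-kB subunits, Nfkb1 (mm10 chr3:135584655-135691547), which encodes p105 and p50, had 325, 315 and 309 CPM in untreated cells and 2418, 2316 and 2503 CPM with LPS. Its log2 fold change was 2.93 ± 0.079 (adjusted p = 1.43e-10). Rel (mm10 chr11:23741729-23770970), the c-Rel subunit, had 38.2, 39.0 and 24.6 CPM without LPS and 394, 303 and 349 CPM with it. The change was 3.35 ± 0.17 (adjusted p = 1.41e-08). Rela (mm10 chr19:5637490-5648130), the p65 subunit that is present before stimulation, moved less: 182, 185 and 173 CPM against 581, 531 and 588 CPM. Even so no LPS library overlapped the untreated ones (log2 fold change 1.65 ± 0.075, adjusted p = 6.52e-09). Nfkb2, the p100 precursor, rose by 2.30 ± 0.25 on 9.8% of its bases.

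Every IkB family member that was tested rose. Nfkbia (mm10 chr12:55489409-55492647), whose promoter window is printed above, had 162, 151 and 159 CPM in untreated cells and 2049, 2414 and 2379.9 CPM with LPS. That is 14.5-fold, a log2 fold change of 3.86 ± 0.10 (adjusted p = 8.30e-11). Nfkbib (IkBβ) went from 54.9, 49.7 and 50.4 CPM to 357, 463 and 432 CPM (log2 fold change 3.01 ± 0.11, adjusted p = 9.13e-10). Nfkbie (IkBε) went from 90.0, 95.4 and 88.9 CPM to 571, 624 and 606 CPM (log2 fold change 2.71 ± 0.077, adjusted p = 1.85e-10). The inhibitors that hold NF-kB in the cytoplasm thus all moved several-fold, with no overlap between the groups. The nuclear members were Bcl3, which binds p50 and p52 on DNA, and Nfkbid (IkBNS). Bcl3 had 40.9, 38.9 and 37.1 CPM without LPS and 195, 161 and 181 CPM with it (log2 fold change 2.20 ± 0.09, adjusted p = 2.70e-09). Nfkbid rose from 31.6 ± 3.03 CPM to 71.0 ± 0.362 CPM, a log2 fold change of 1.17 ± 0.088.

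Of the A20 group, Tnfaip3 (mm10 chr10:19000910-19015410), the ubiquitin-editing enzyme that ends the signal, had the largest fold change of the members tested. Its counts come from 9.4% of its exon bases. It had 2.18, 1.86 and 1.16 CPM in untreated cells and 76.3, 59.4 and 68.9 CPM with LPS, a log2 fold change of 5.25 ± 0.17 (adjusted p = 4.94e-10). Tnip3 (ABIN-3), an A20-binding protein, rose from 231 ± 1.11 CPM to 518 ± 44.4 CPM, a log2 fold change of 1.16 ± 0.079.

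**Figure D2:**
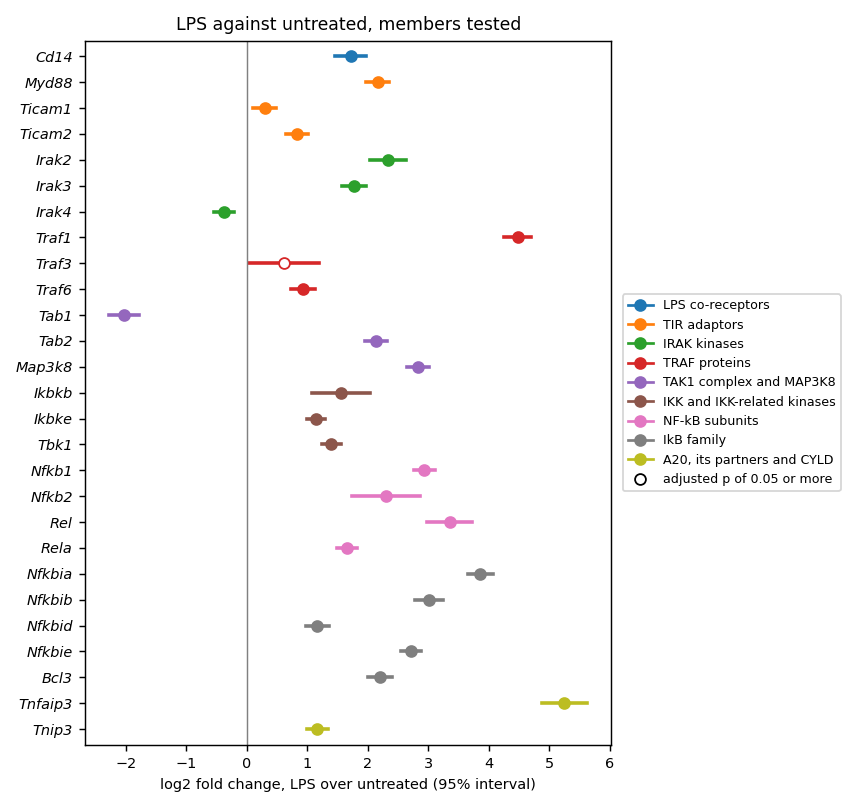
Log2 fold change of LPS over untreated cells with its 95% interval (x axis) for the 27 members tested, coloured by role. Filled points were called; Tab1 and Irak4 lie below 0, and Traf3, the open point, was not called.

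Between genes, levels can be compared per kilobase of own exon. In untreated cells Cd14 was the highest member, at 777 ± 118 CPM per kilobase, followed by Nfkbia at 100.4 ± 3.54 CPM per kilobase and Nfkb1 at 76.9 ± 1.97 CPM per kilobase. With LPS in the same set the order of these 3 was kept, at 2549 ± 159.9 CPM per kilobase, 1458 ± 129 CPM per kilobase and 586 ± 22.8 CPM per kilobase. Traf1 moved from 15.2 ± 1.26 CPM per kilobase, below most of the members tested, to 339.9 ± 26.2 CPM per kilobase, the fourth place after these 3.

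The LPS groups of the 2 sets were not tested against each other, since the sets were normalised apart. Side by side, Tnip3 had a mean level of 518 CPM with LPS in the first set and 2078 CPM with LPS alone in the second. In the other direction, Cd14 had 3816 and 1822 CPM and Tnfaip3 had 68.2 and 33.0 CPM. Nfkbia was at 2281 and 2257 CPM.

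The rHDL changes under LPS were smaller in the median than the LPS changes of the first set. The second set has no untreated cells, so the LPS change was not measured in it. Among the members tested, the median absolute log2 fold change was 0.19 with rHDL and 2.02 with LPS. Over all genes it was 0.25 with rHDL and 0.67 with LPS. Of 26 members tested without loading, 2 rose, 9 fell and 15 were not called in rHDL followed by LPS against LPS alone. Over all 8965 genes 18.1% were called higher and 18.4% lower. The median log2 fold change was -0.16 over the members tested and 0.03 over all genes. No called member changed as much as 2-fold, and none was called against a minimum fold of 1.5. With library totals the median of all genes moved to 0.14 and the higher share of all calls from 49.5 to 66.3%, and 4 members were called higher and 5 lower.

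Markers of the macrophages themselves moved with rHDL. Of 8 tested, 6 were called lower and 1 higher, against 18.4% lower and 18.1% higher of all genes. The 8 macrophage markers with counts, of 10 listed, summed to 9508 to 11941 CPM after rHDL and to 18518 to 20201 CPM with LPS alone. Cd14 is in that list. Itgam was at 0 counts in every group, but 0.1% of its exon bases are its own, so this says nothing about its expression. The 5 neutrophil markers with counts summed to 3.24 to 5.15 CPM after rHDL and 13.1 to 16.0 CPM with LPS alone, with S100a9, Mpo and Elane at 0. The 4 stromal markers with counts summed to 107 to 134 CPM after rHDL and 56.5 to 58.3 CPM with LPS alone, with Pecam1 and Pdgfrb at 0. S100a9, Pecam1 and Pdgfrb had 0.6, 1.7 and 0.1% of their exon bases to themselves, so their 0 says as little. The 5 dendritic markers with counts, of 7, summed to 102 to 117 CPM and 69.9 to 94.4 CPM. The 3 mast cell, erythroid and megakaryocyte markers with counts, of 7, summed to 32.4 to 43.4 CPM and 54.5 to 61.4 CPM. The 3 lymphoid markers with counts reached at most 0.278 CPM after rHDL and 0.363 CPM with LPS alone. Whether these shifts play a part in the rHDL results was not tested.

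Myd88 fell most. It had 584, 504 and 576 CPM with LPS alone and 372, 296 and 313 CPM after rHDL. The highest rHDL library lay well below the lowest LPS library, and the log2 fold change was -0.76 ± 0.10 (adjusted p = 5.30e-05). The authors' deposited table of this comparison lists Myd88 at -0.77 (adjusted p = 2.88e-16). The other adaptors were not called, with values of 0.10 ± 0.077 for Ticam1 and -0.16 ± 0.092 for Ticam2. Cd14 was not called either, at 0.14 ± 0.072, although with library totals it was higher, at 0.26 (adjusted p = 0.0180).

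Of the IRAK and TRAF genes, Irak3 (mm10 chr10:120141654-120201537) had 236, 220.2 and 222 CPM with LPS alone and 156, 170.4 and 165 CPM after rHDL. All 3 rHDL libraries were lower, with a log2 fold change of -0.47 ± 0.072 (adjusted p = 0.000146). Traf1 had 758, 707 and 731 CPM against 621, 525 and 566 CPM (log2 fold change -0.36 ± 0.082, adjusted p = 0.00335). Traf6 (mm10 chr2:101678440-101700974) moved the other way, with 55.7, 62.5 and 55.7 CPM against 66.4, 73.9 and 76.1 CPM. Its rHDL libraries were all above the LPS ones, by a log2 fold change of 0.31 ± 0.083 (adjusted p = 0.00814). Irak2 and Irak4 were not called, at -0.26 ± 0.17 and -0.17 ± 0.079.

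Among the kinases, Ikbke (mm10 chr1:131254602-131279563), the inducible kinase of the interferon branch, had 484, 419 and 468 CPM with LPS alone and 304, 305 and 313 CPM after rHDL. The rHDL libraries hardly differed among themselves and lay below all LPS libraries (log2 fold change -0.57 ± 0.078, adjusted p = 5.32e-05). Its relative Tbk1 was not called, at -0.19 ± 0.08 (adjusted p = 0.0776). Tab2 had 824, 870.0 and 844 CPM against 687, 719.6 and 713 CPM (log2 fold change -0.26 ± 0.064, adjusted p = 0.00530), which was not called with library totals (-0.14, adjusted p = 0.154). Ikbkb, at low counts, fell by 0.44 ± 0.16 on the log2 scale (adjusted p = 0.0435). That call was lost without any 1 of the 6 libraries, with an adjusted p of up to 0.124. Tab1 and Map3k8 were not called, at -0.16 ± 0.13 and 0.055 ± 0.063.

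Of the 4 NF-kB subunits tested, Nfkb1 alone was called. It had 1609.8, 1569 and 1539 CPM with LPS alone and 1382, 1372 and 1380.4 CPM after rHDL, a log2 fold change of -0.19 ± 0.059 (adjusted p = 0.0208). The call was lost without replicate 1 of LPS alone or without replicate 2 or 3 of rHDL, with an adjusted p of up to 0.0774, and with library totals (-0.074, adjusted p = 0.342). Rela, Rel and Nfkb2 had values of -0.043 ± 0.061, -0.19 ± 0.11 and -0.059 ± 0.14.

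The inhibitors differed among themselves. Nfkbid (mm10 chr7:30423304-30428746) had 42.9, 48.5 and 42.3 CPM with LPS alone and 66.8, 72.8 and 71.5 CPM after rHDL. Every rHDL library exceeded every LPS library, and the log2 fold change of 0.66 ± 0.077 had the smallest p of the members here (adjusted p = 1.32e-05). The authors' deposited table lists it at 0.64 (adjusted p = 1.43e-12), and it lists no member besides Nfkbid and Myd88 among its 1609 genes. That table holds no RPKM ratio between 0.667 and 1.5, so a member with a smaller change than that could not be in it. Nfkbia, the member with the highest level per kilobase in this group, had 2301, 2243 and 2225 CPM against 2459, 2155 and 2185 CPM. These libraries overlapped, and the 95% interval of the log2 fold change was -0.17 to 0.18. Nfkbib, Nfkbie and Bcl3 were not called, at 0.15 ± 0.083, -0.12 ± 0.069 and 0.055 ± 0.091, although with library totals Nfkbib was higher, at 0.27 (adjusted p = 0.00832).

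Both measured genes of the A20 group were called lower. Tnip3 (mm10 chr6:65590398-65634040) had 2048, 2048 and 2139.7 CPM with LPS alone and 1813, 1486 and 1502 CPM after rHDL, a log2 fold change of -0.38 ± 0.082 (adjusted p = 0.00228). Tnfaip3 had 31.3, 34.7 and 32.9 CPM against 26.6, 26.6 and 28.1 CPM (log2 fold change -0.28 ± 0.092, adjusted p = 0.0251). The Tnfaip3 call was lost without replicate 2 or 3 of LPS alone or without replicate 1 or 2 of rHDL (adjusted p up to 0.0917), and with library totals (-0.17, adjusted p = 0.202).

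In cholesterol-loaded cells no member was called with rHDL against loading and LPS alone by edgeR's quasi-likelihood test without a replicate block. Over all 8965 genes 0.424% were called higher and 0.591% lower. With the replicate number as a block, the same test called 2 members higher, Ikbke (adjusted p = 0.00320) and Rela (adjusted p = 0.0201). That fit called 277 of all genes higher and 209 lower. With an unadjusted p under 0.05 there were 6 members, 4 higher and 2 lower, where 1044 of all 8965 genes had such a p. DESeq2 called 2 members higher, with 94 of 8095 genes higher and 83 lower. In the main fit the median log2 fold change was 0.09 over the members tested and 7.4e-05 over all genes. The largest value was that of Ikbke, with 379, 353 and 386 CPM without rHDL and 439, 445 and 523 CPM with it. The groups did not overlap, with rHDL above, and the log2 difference was 0.33 ± 0.078 (95% interval 0.16 to 0.50, adjusted p = 0.0651). DESeq2 gave Ikbke an adjusted p of 0.0110, and leaving out replicate 1 of the loaded rHDL group gave 0.0335. Rela had 318 ± 9.79 CPM against 367 ± 16.5 CPM, a log2 difference of 0.21 ± 0.062 (adjusted p = 0.154; 0.0491 by DESeq2). For Myd88 the values were 492, 415 and 471 CPM and 572, 458 and 526 CPM, which overlap, and the 95% interval was -0.046 to 0.40. For Nfkbid the interval was 0.029 to 0.37. In the loaded cells the macrophage markers summed to 15621 to 19700 CPM with rHDL and to 18063 to 19825 CPM without it, ranges that overlap. The stromal markers summed to 34.2 to 42.7 CPM with rHDL and 43.5 to 75.4 CPM without it, and their part was not tested. The authors' deposited table of the loaded comparison lists 47 genes and no member.

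**Figure D3:**
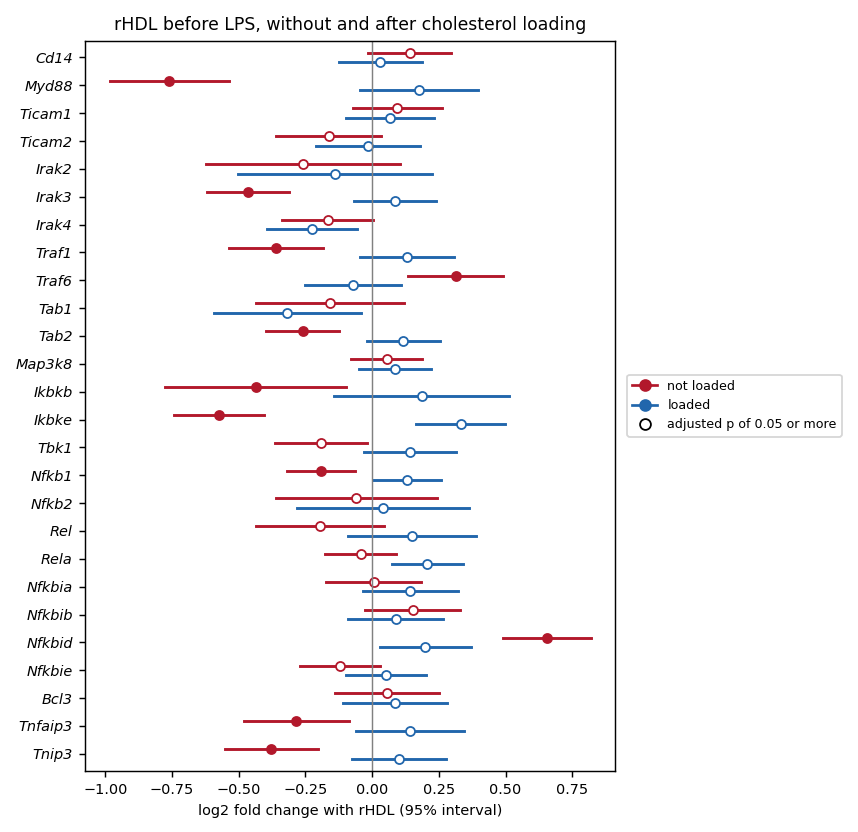
Log2 fold change with rHDL before LPS and its 95% interval (x axis) for the 26 members tested, red in cells not loaded and blue in loaded cells, with filled points where the member was called. Filled points occur in cells not loaded only, with Myd88 and Ikbke lowest and Nfkbid highest.

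Whether loading changed the rHDL effect was tested as the difference between the 2 rHDL effects, loaded minus not loaded. Of 26 members, 11 had a higher and 2 a lower rHDL effect after loading, and 13 were not called. Over all 8965 genes 16.0% were called higher and 14.2% lower. The member median was 0.16 on the log2 scale, and that of all genes -0.03. With library totals the median of all genes was -0.20, the higher share of all calls moved from 53.0 to 32.4%, and 5 members were called higher and 2 lower. This test uses the same libraries as both rHDL comparisons and is no separate evidence for either. The 11 members called with rHDL without loading were all called here. After loading, 21 of all 26 members had an estimate above 0, and none of these was called in the main fit. The median estimate over all genes was 7.4e-05 there. In this difference 6 of the 8 macrophage markers tested were called higher and 1 lower (median 0.98 on the log2 scale). Both neutrophil markers tested were higher (median 1.39), as were both tested markers of the joint list of mast cells, erythroid cells and megakaryocytes (median 2.02). In that list Mcpt4 and the erythroid markers Hba-a1 and Hbb-bs were at 0 counts in every group and were not tested. Of 2 dendritic and 2 stromal markers tested, 1 each was lower. The part of these markers in the members' differences was not tested.

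The smallest p was that of Ikbke, whose rHDL effect was -0.57 without and 0.33 after loading, a difference of 0.90 ± 0.11 (adjusted p = 4.33e-05). Myd88 had effects of -0.76 and 0.18, a difference of 0.94 ± 0.15 (adjusted p = 0.000308). Irak3 had -0.47 and 0.087, a difference of 0.55 ± 0.10 (adjusted p = 0.000952). In these 3 genes the rHDL group was lower than its control without loading and higher in the mean after it. Traf1 differed by 0.49 ± 0.12 (adjusted p = 0.00582) and Tab2 by 0.38 ± 0.091 (adjusted p = 0.00598). Nfkbid differed in the other direction, by -0.46 ± 0.11 (adjusted p = 0.00629), since its effect was 0.66 without and 0.20 after loading. The remaining called members were Tnip3, Nfkb1, Tnfaip3, Tbk1, Rela and Ikbkb, with differences of 0.25 to 0.62, and Traf6 at -0.39. With library totals Tab2, Nfkb1, Tnfaip3, Tbk1, Rela and Ikbkb were not called.

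**Figure D4:**
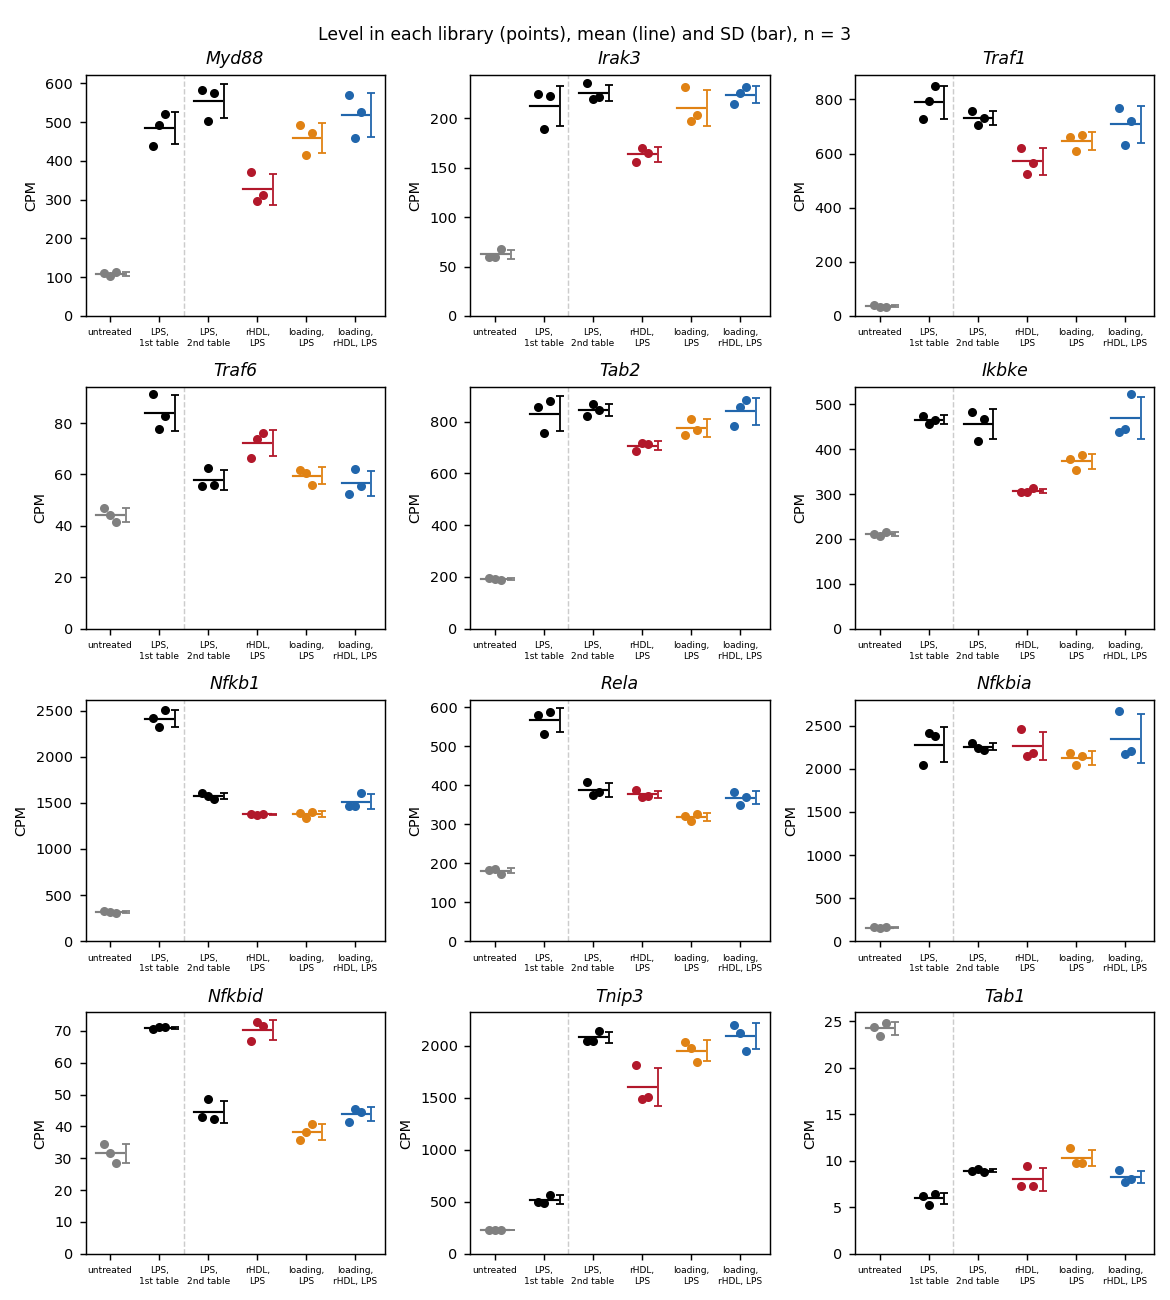
CPM (y axis, from 0) of 12 members in each library of the 6 groups, with points for libraries, a line for the mean and a bar for the SD over 3 libraries; the dashed line parts the first set of libraries from the second. Myd88, Irak3, Traf1, Tab2, Ikbke and Tnip3 are lower and Nfkbid and Traf6 higher after rHDL than with LPS alone in the second set, while the Nfkbia libraries of these 2 groups overlap.

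Loading by itself was compared under LPS, without rHDL. Of 26 members, 4 fell, none rose and 22 were not called, where 3.99% of all 8965 genes were called higher and 4.57% lower. With an unadjusted p under 0.05, 2 members were higher and 11 lower, where 2128 of all 8965 genes had such a p. DESeq2 called no member higher and 5 lower, among them Nfkb1 (adjusted p = 0.00679), with 340 of 8268 genes higher and 514 lower. The median log2 fold change was -0.13 over the members tested and 0.01 over all genes. With library totals 1 member was called higher and 1 lower, and the higher share of all calls moved from 46.6 to 71.1%. Fitted with the replicate number as a block, 1 member was called higher and 10 lower, with 717 of all genes higher and 934 lower. The macrophage markers summed to 18063 to 19825 CPM in loaded cells, a range that overlaps the 18518 to 20201 CPM without loading. The neutrophil markers summed to 8.24 to 10.5 CPM with and 13.1 to 16.0 CPM without loading, and the mast cell, erythroid and megakaryocyte markers to 65.2 to 75.2 CPM with and 54.5 to 61.4 CPM without it. Their part was not tested.

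Rela had 409, 374 and 381 CPM with LPS alone and 321, 307 and 326 CPM after loading. All loaded libraries were lower, with a log2 fold change of -0.29 ± 0.062 (adjusted p = 0.0113). Without replicate 1 of LPS alone or replicate 2 of the loaded group it was not called (adjusted p up to 0.0600). Tnfaip3 had 31.3, 34.7 and 32.9 CPM against 28.8, 24.0 and 22.2 CPM (log2 fold change -0.40 ± 0.094, adjusted p = 0.0183), lost without replicate 2 or 3 of either group (up to 0.0958). Map3k8 had 274, 292 and 286 CPM against 244, 246 and 231 CPM (log2 fold change -0.24 ± 0.063, adjusted p = 0.0289). Ikbke had 484, 419 and 468 CPM against 379, 353 and 386 CPM (log2 fold change -0.29 ± 0.078, adjusted p = 0.0324). The Map3k8 call was lost without any 1 of the 6 libraries (up to 0.145), and the Ikbke call without any but replicate 2 of LPS alone (up to 0.130). Myd88, Nfkbid and Nfkbia had values of -0.27 ± 0.10, -0.23 ± 0.08 and -0.085 ± 0.083 and were not called.

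Other genes of the pathway were counted in lists, with log2 fold changes in parentheses. Some of them also had few own exon bases, for example Tlr7 (0.9%), Irf3 (7.2%), Irf7 and Ecsit (0.0%), Tnf (2.9%) and Cflar (11.0%). Over all genes, the shares called higher and lower were 35.3 and 37.6% with LPS, 18.1 and 18.4% with rHDL and 0.424 and 0.591% with rHDL in loaded cells. They were 16.0 and 14.2% for the difference and 3.99 and 4.57% for loading. Of 18 TLRs and their accessory proteins 13 were tested. With LPS 10 rose, among them Tlr2, the receptor of bacterial lipoproteins (2.23 ± 0.091), and Tlr3, the receptor of double-stranded RNA (2.92 ± 0.12). The other 3 fell, among them Tlr13, a receptor of bacterial ribosomal RNA (-1.35 ± 0.071). With rHDL 4 rose, including Tlr13 (0.91 ± 0.093), and 8 fell, including Ly86, the MD-1 partner of CD180 (-1.70 ± 0.19), and Tlr8 (-0.98 ± 0.11). In loaded cells 2 fell with rHDL, the chaperones of TLR folding Cnpy3 (-0.50 ± 0.071) and Hsp90b1 (-0.49 ± 0.075). With loading and no rHDL 3 rose, Hsp90b1 (0.47 ± 0.075), Cnpy3 (0.37 ± 0.071) and Cd180 (0.28 ± 0.082). The difference of the rHDL effects was called higher in 8 and lower in 4.

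Of 39 other signalling proteins 33 were tested with LPS and 31 in the second set. With LPS 20 rose and 5 fell. The smallest p belonged to the kinase Ripk2 (4.84 ± 0.089), the ligase Peli1 (4.38 ± 0.10) and Rnf31 (HOIP, 2.45 ± 0.07), which builds linear ubiquitin chains. With rHDL 5 rose and 11 fell. The A20 partners Tnip2 (-0.69 ± 0.063) and Tax1bp1 (-0.71 ± 0.068) and the adaptor Pik3ap1 (-0.76 ± 0.077) had the smallest p, all lower. In loaded cells edgeR called none with rHDL, and 2 were higher and 0 lower at an unadjusted p under 0.05. Of all 8965 genes, 1044 had such a p. The difference was called higher in 9 and lower in 4. With loading and no rHDL 3 fell, Tnip2 (-0.49 ± 0.063), Ripk1 (-0.33 ± 0.058) and Tax1bp1 (-0.37 ± 0.068).

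All 16 NF-kB target genes listed were tested, and all 16 rose with LPS, with a median log2 fold change of 7.41. With rHDL 9 rose and 4 fell, with a median of 0.40 over the list and 0.03 over all genes. The 3 with the smallest p were the chemokines Cxcl2 (2.21 ± 0.10) and Cxcl1 (2.63 ± 0.15) and the cytokine subunit Il12b (1.29 ± 0.088), all higher. In loaded cells edgeR called none with rHDL, and 3 were higher and 3 lower at an unadjusted p under 0.05, as were 1044 of all 8965 genes in either direction. The difference of the rHDL effects was called higher in 4 targets and lower in 7, with -2.44 ± 0.14 for Cxcl2. With loading and no rHDL 3 rose, including Il12b (0.86 ± 0.088) and the adhesion molecule Vcam1 (0.57 ± 0.10), and 1 fell, Nos2 (-0.31 ± 0.074).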

How the data were processed

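Poly-dT selected RNA of 18 macrophage libraries was sequenced, per the labels' protocols, which state RNA integrity numbers above 8. Per the submitters' processing notes, the authors used cutadapt, HISAT2, featureCounts of Subread and DESeq2 with build mm10, with no versions stated in the sources used here. The authors deposited unnormalised read counts in 2 tables of 32850 transcript rows. In them 6697 of 6698 rows with no own exon base have 0 counts, as do 98 of 98 rows whose own bases exist only when strand is kept, so reads were assigned without strand. The authors' deposited comparison tables give each gene's log2 fold change with its adjusted p-value, in the layout of DESeq2, and a ratio of RPKM values used here only to see how the authors filtered those tables.

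Rows were summed per symbol and fitted with edgeR 4.0.16 in R 4.3.3 (filterByExpr with minimum count 10, TMM, quasi-likelihood F test, 2-sided, Benjamini-Hochberg adjustment over all genes tested, threshold 0.05). The first table (6 libraries) and the second (12 libraries, 4 groups sharing 1 fit) were fitted apart. The standard error is the fold change divided by the square root of F. Depth limits precision by counting error at low counts. Between replicates of a group, chi-square per degree of freedom over all genes was 3.01 to 34.98, where 1 is counting error alone. The code was run on counts simulated from the same kind of model, without pairing. That run checks the code and not how well the model describes these data. The 5 comparisons had alternatives in the tool (DESeq2 1.42.0), scaling, filter, a minimum fold of 1.5, the highest row per symbol, the replicate block, the groups fitted and each library left out.

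The members and lists were chosen with earlier results of these data known. Per-library values were given for the called members with the smallest p: up to 12 for LPS, 10 for each rHDL comparison and for loading, and up to 6 differences. Others are given by value or count. Motif letters were a run of 3 G, a purine, any base, A or T, a pair of pyrimidines and a pair of C, with overlaps counted.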

Additional observations from a re-analysis of the deposited data

Results flagged for a closer look

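The rHDL effect under LPS differed between loaded and not loaded cells, by a test of the difference itself, in 13 of the 26 members tested. Over all 8965 genes, 16.0% were called higher and 14.2% lower in this test. In 11 of the 13 members the effect after loading was the higher one on the log2 scale. These differences were 0.94 for the adaptor Myd88, 0.90 for the kinase Ikbke, 0.62 for Ikbkb, 0.55 for the inhibitor Irak3, 0.49 for Traf1 and 0.48 for Tnip3. They were 0.42 for Tnfaip3, 0.38 for Tab2, 0.33 for Tbk1, 0.32 for Nfkb1 and 0.25 for Rela. The effect after loading was the lower one for the nuclear inhibitor Nfkbid (-0.46) and the ubiquitin ligase Traf6 (-0.39). Markers of other cells and of macrophages also differed. A higher rHDL effect after loading was called in 6 of 8 macrophage and 2 of 2 neutrophil markers tested. The same held for 2 of 2 tested markers of the joint mast cell, erythroid and megakaryocyte list. A lower one was called in 1 of 8 macrophage, 1 of 2 dendritic and 1 of 2 stromal markers. Their part was not tested.

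With each of the 12 libraries left out in turn, Ikbke, Myd88, Irak3, Traf1, Tab2, Nfkbid, Tnip3 and Nfkb1 were called every time. The other calls depended on which library was left out. Tnfaip3 was called in 7 of the 12 fits (adjusted p up to 0.0642), Traf6 in 5 (up to 0.0634), Tbk1 in 4 (up to 0.0991), Rela in 3 (up to 0.111) and Ikbkb in 2 (up to 0.106).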

How the results depend on the processing

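With library totals in place of TMM, LPS against untreated cells gave 1532 genes higher and 6640 lower, against 3380 and 3605 with TMM, and Ticam1 reversed to -0.42. For rHDL without loading, 4 members were higher and 5 lower, with 2507 of all genes higher. After loading 25 genes were higher and the higher share of calls went from 41.8 to 27.2%. For the difference 5 members were higher, with 2124 genes lower. For loading 1 member was higher and 1 lower, with 626 genes higher and 254 lower. Against a minimum fold of 1.5, LPS left 1 member lower and 1906 genes higher and 2138 lower. For rHDL it left 0 members higher and 0 lower, with 226 and 432 genes. After loading it left 1 gene higher and 4 lower. For the difference it left 1 member higher and 0 lower, with 395 and 197 genes, and for loading 0 members lower, with 9 and 23 genes.

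For rHDL after loading, DESeq2 called 2 members higher, with 94 genes higher and 83 lower, against 38 and 53 by edgeR. Without a low-count filter 1 member, 90 and 86 genes were called, and with the 2 compared groups alone 19 and 23 genes. For loading the 2 groups alone gave 1 member higher and 7 lower, with 691 genes lower. Deviations of same-numbered libraries correlated over 0.1 in 0 of 3 pairs of the first set and 13 of 18 of the second, where the replicates numbered 1 and 2 did so in 12 of 12 pairs and those numbered 3 in 1 of 6. A library correlated best with its own number in 28 of 36 cases in the second set. Of the groups compared directly, none had all 3 pairs over 0.1. The rHDL groups with and without loading, which both enter the difference, had 0.436, 0.283 and 0.177. The number was not taken to pair the libraries in the main fits. With the number as a replicate block, rHDL after loading gave 2 members higher and 277 and 209 genes. Loading then gave 1 member higher and 10 lower, with 717 and 934 genes. The member counts of the other comparisons stayed within 1.5 times.

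Leaving out 1 library gave 0 to 1 members higher, 10 to 68 genes higher and 20 to 55 lower for rHDL after loading. It gave 7 to 10 members higher and 1 to 2 lower for the difference, and 0 to 2 members lower, 158 to 245 genes higher and 189 to 349 lower for loading. For LPS it left 24 members higher and 2 lower each time, and for rHDL 2 higher and 6 to 8 lower. Where a count moved, the cause was not tested, beyond the fewer libraries in these fits. Ikbkb, Irak2, Nfkb2, Traf3 and Tnfaip3 were measured on under 25% of their exon bases.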
